A study of Homo sapiens with 19 samples.

Results

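SR proteins and hnRNPs are the main families of RNA-binding proteins that choose splice sites, and their 41 genes are described here in SH-SY5Y cells, a human neuroblastoma line. The members were the 12 SRSF genes, TRA2A and TRA2B, and 27 genes whose GENCODE name begins with HNRNP, found by name among the 19942 protein-coding rows of the gene tables. Their 557 transcripts were taken from the 256980 of a transcript table. No measured value entered this rule by name, but it was set with earlier results of these data known. Stress granules (SGs) were induced with arsenite (AS), and G3BP1 and G3BP2 are RNA-binding proteins of these granules. Poly-A RNA-seq was made after siRNA against G3BP1 (siG3BP1), against G3BP2 (siG3BP2) or a control siRNA (siCtrl). RNA-seq was also made of the cleared lysate of AS-treated cells (Total) and of the SG cores purified from it with an anti-G3BP1 antibody (SG). rRNA-depleted RNA-seq was made of untreated and AS-treated cells, and eCLIP (crosslinking and immunoprecipitation of a protein with its bound RNA) of each G3BP protein with and without AS.

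The labels give AS at 500 µM for 1 h for the rRNA-depleted AS library. They give 50 mM for 1 h for every other library, also for the knockdown and the untreated eCLIP libraries, while the study's methods give 500 µM and mention no AS for the knockdowns, so whether the siRNA libraries were stressed cannot be told from the sources used here. Each RNA-seq condition had 1 library and therefore no replicate check. Each eCLIP group had 2 libraries, and nothing says that they came from separate cultures, so a p-value measures only the spread between libraries, which may be technical. The TPM of protein-coding genes summed to between 623955 and 735927, and the reads behind the rRNA-depleted table to 13291959 (untreated) and 11281587 (AS). The numbers behind the eCLIP values summed to between 22678678 and 26179736 in the 4 libraries numbered 1 and to between 4268911 and 10678043 in those numbered 2. The knockdowns held their targets lower, with G3BP1 at 18.7 TPM in siCtrl and 6.0 in siG3BP1, and G3BP2 at 38.1 TPM in siCtrl and 11.4 in siG3BP2. Of the sympathetic neuroblastoma markers reported here, PHOX2A, HAND2, GATA3 and DBH lay between 206 and 1371 TPM in the 5 TPM libraries, and TH at 0.389 TPM or less. Of 6 markers of other cells, PTPRC, PECAM1 and ALB were at 0.248 TPM or less, KRT18 at 1.3 or less, COL1A1 between 9.42 and 41, and CD68 between 0.553 in Total and 28.7 in SG.

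SR proteins carry RNA recognition motifs and a domain rich in arginine and serine, bind exonic enhancers and mostly favour the use of nearby splice sites. hnRNPs coat nascent transcripts and often oppose them, and several also act in export, stability and translation. TRA2A and TRA2B are SR-like activators that bind purine-rich enhancers. Many genes of both families hold a poison exon or a retained intron, whose inclusion brings in an early stop codon and sends the mRNA to nonsense-mediated decay (NMD). These proteins bind their own transcripts at such segments, which limits their own level.

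Some segments named in the transcript results are shown here from the GRCh38 genome, 5′ to 3′ on the strand of the gene, with intron in lower case and exon in capitals. The start of the poison exon of TRA2B (276 nt, chr3:185931577-185931852, minus strand, inside an intron of the canonical transcript) and that of TRA2A (79 nt, chr7:23522354-23522432, minus strand, likewise) are each given with 20 intron bases and 10 exon bases.
TRA2B poison exon start (chr3:185931843-185931872): cctgttctttttctattaagGTTAATGTTG
TRA2A poison exon start (chr7:23522423-23522452): aatgttctttttccattaagGTTAATGTTC
The 2 paralogs shared 26 of these 30 bases, 17 of 20 in the intron and 9 of 10 in the exon. A cassette exon of HNRNPDL that marks transcripts annotated as NMD targets (105 nt, chr4:82425563-82425667, minus strand) began as follows.
HNRNPDL NMD exon start (chr4:82425658-82425687): accttgtttgtacccgccagCGGGAACTTC
Both coding cassette exons with enough reads are given whole. The 36-nt exon distinguishes the B1 from the A2 form of the HNRNPA2B1 protein, and the 171-nt exon of HNRNPDL encodes a stretch rich in tyrosine and glycine.
HNRNPA2B1 36-nt exon (chr7:26197811-26197886, minus strand): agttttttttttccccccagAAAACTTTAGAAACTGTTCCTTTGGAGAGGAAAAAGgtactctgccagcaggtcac
HNRNPDL 171-nt exon (chr4:82426443-82426653, minus strand): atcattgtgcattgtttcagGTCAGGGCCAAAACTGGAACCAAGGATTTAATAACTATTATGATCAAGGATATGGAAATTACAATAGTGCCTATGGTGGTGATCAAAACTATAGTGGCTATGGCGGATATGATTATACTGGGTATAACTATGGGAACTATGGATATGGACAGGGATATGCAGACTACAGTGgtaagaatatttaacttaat

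To see which members changed with AS, the rRNA-depleted libraries were compared by the read numbers behind their values. A read in this table counts on every transcript whose exons hold it, so the transcripts of a gene share reads and are not independent. The transcript with the most untreated reads stood for a gene, so the choice rests on the untreated library. For 13 of 34 members it was not the canonical transcript, and it can be a long form with a retained intron or an NMD transcript. Read ratios of AS to untreated carry 95% exact intervals that cover counting error only. Over 11461 genes with at least 20 untreated reads the median ratio was 1.03, and the interval lay above 1 for 18.8% of genes and below 1 for 12.0%. The ratios were not scaled to the library totals, so the median gene is the level to read them against. The interval counts are nonetheless against 1, for members and all genes alike. Of 34 members with at least 20 untreated reads, the interval lay above 1 for 8 and below 1 for 7, with a median ratio of 1.03. The families differed in their values. Of the 14 SR and TRA2 genes, 11 had a ratio above 1 (median 1.10) and 6 an interval above 1, whereas of 20 hnRNP genes 10 had a ratio above 1 (median 1.00), 2 an interval above 1 and 6 an interval below 1. Ratios above the median of all genes were found for 11 of the 14 SR and TRA2 genes and 7 of the 20 hnRNP genes. These counts have no test between the families, because each treatment had 1 library.

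TRA2B (chr3:185914558-185938103) and TRA2A (chr7:23504780-23532041) had the largest ratios of the members. TRA2B had 1381 reads in the untreated and 2036 in the AS library, a ratio of 1.47 (1.38 to 1.58). TRA2A had 675 and 945 reads, a ratio of 1.40 (1.27 to 1.55). Both genes were higher in the AS library along their whole set of transcripts. The 14 transcripts of TRA2B with at least 20 untreated reads had ratios of 1.25 to 2.20, and the 11 of TRA2A had ratios of 1.24 to 1.89.

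In both genes the NMD transcript with the poison exon had a larger ratio than the canonical one. The largest ratios of these genes were those of other transcripts, TRA2B-210 at 2.20 and TRA2A-208 at 1.89. TRA2B-204, the canonical transcript, had 1296 reads in untreated and 1908 in AS cells, a ratio of 1.47. TRA2B-205, which holds the 276-nt exon shown above, had 879 and 1421, a ratio of 1.62 (1.49 to 1.76). TRA2A-201, the canonical transcript, had 672 and 943, a ratio of 1.40. TRA2A-203, which holds the 79-nt exon, had 186 and 323, a ratio of 1.74 (1.45 to 2.09). The intervals of the canonical and poison-exon transcripts overlapped, and the transcripts share the reads of their common exons. Across the members such a difference was small. In 13 member genes whose canonical transcript was matched, 27 NMD transcripts had an exon inside a canonical intron, and 9 of them were HNRNPA2B1 transcripts. Without HNRNPA2B1, 12 of 18 had a larger ratio than the canonical transcript and 6 a smaller one, with a median ratio of ratios of 1.05.

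Among the SR proteins, SRSF2, SRSF7 and SRSF3 followed TRA2A and TRA2B among the ratios whose interval lay above 1. SRSF2, which binds exonic enhancers and stays in the nucleus, had 2440 reads in untreated and 2851 in AS cells (ratio 1.17, 1.11 to 1.23). The value of SRSF2 was that of a form that keeps an intron, and its canonical SRSF2-202 had 2113 and 2590 reads (1.23, 1.16 to 1.30). SRSF7, a shuttling SR protein with a zinc knuckle, had 960 and 1119 (1.17, 1.07 to 1.27) on the NMD transcript SRSF7-208, and its canonical SRSF7-201 had 813 and 1033 (1.27, 1.16 to 1.39). SRSF3, the smallest family member and an adaptor of mRNA export, had 1556 and 1807 (1.16, 1.08 to 1.24). SRSF1, the prototype of the family, had 3148 and 3419 (1.09, 1.03 to 1.14). SRSF4 was the one of this group with an interval below 1, at 794 and 673 reads (0.848, 0.764 to 0.940) on the retained-intron transcript SRSF4-207. Its canonical SRSF4-201 had 520 and 526 reads (1.01, 0.894 to 1.14). SRSF9 (0.918) and SRSF5 (0.986) also had ratios below 1, with intervals that held 1. The NMD transcripts of SRSF6, SRSF7 and SRSF3 were also counted, and they lay on both sides of the canonical ones. SRSF6-202, with a 268-nt exon inside a canonical intron, had 933 and 1093 reads (1.17, 1.07 to 1.28) beside 1.06 for the canonical SRSF6-201. SRSF7-203 had 347 and 508 reads (1.46, 1.27 to 1.68) beside 1.27 for the canonical SRSF7-201, while SRSF7-204 was at 1.27, SRSF7-205 at 1.31, SRSF7-206 at 1.18, and SRSF7-207 and SRSF7-208 at 1.17. SRSF3-203 was at 1.16 and SRSF3-204 at 1.03, beside 1.16 for the canonical SRSF3-202.

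Among the hnRNPs the lower ratios stood out. HNRNPUL2, a scaffold-attachment factor of the HNRNPU group, had 974 reads in untreated and 681 in AS cells (0.699, 0.633 to 0.772), the smallest ratio of the 34. The readthrough HNRNPUL2-BSCL2, which shares exons with HNRNPUL2, had 748 and 699 (0.934, 0.842 to 1.04). HNRNPD, which encodes the decay factor AUF1 that binds AU-rich elements, had 1815 and 1483 (0.817, 0.762 to 0.876). HNRNPA3 had 2549 and 2304 (0.904), HNRNPA1 3381 and 3170 (0.938, 0.893 to 0.984), HNRNPA2B1 5148 and 4834 (0.939) and HNRNPUL1 2245 and 2099 (0.935), the last 3 with intervals that ended just below 1. HNRNPU, a nuclear scaffold protein, had 5994 and 6660 (1.11, 1.07 to 1.15) on the retained-intron transcript HNRNPU-231, while its canonical HNRNPU-226 had 5034 and 5090 (1.01, 0.972 to 1.05). Of 29 HNRNPU transcripts the median ratio was 0.965, with 4 intervals above 1 and 8 below. HNRNPF, which binds G-rich runs, had 1250 and 1357 reads (1.09, 1.005 to 1.17), an interval above 1 that held the median of all genes at 1.03. HNRNPC, which packages nascent transcripts and binds uridine runs, had 3169 and 3226 (1.02, 0.969 to 1.07).

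**Figure D1:**
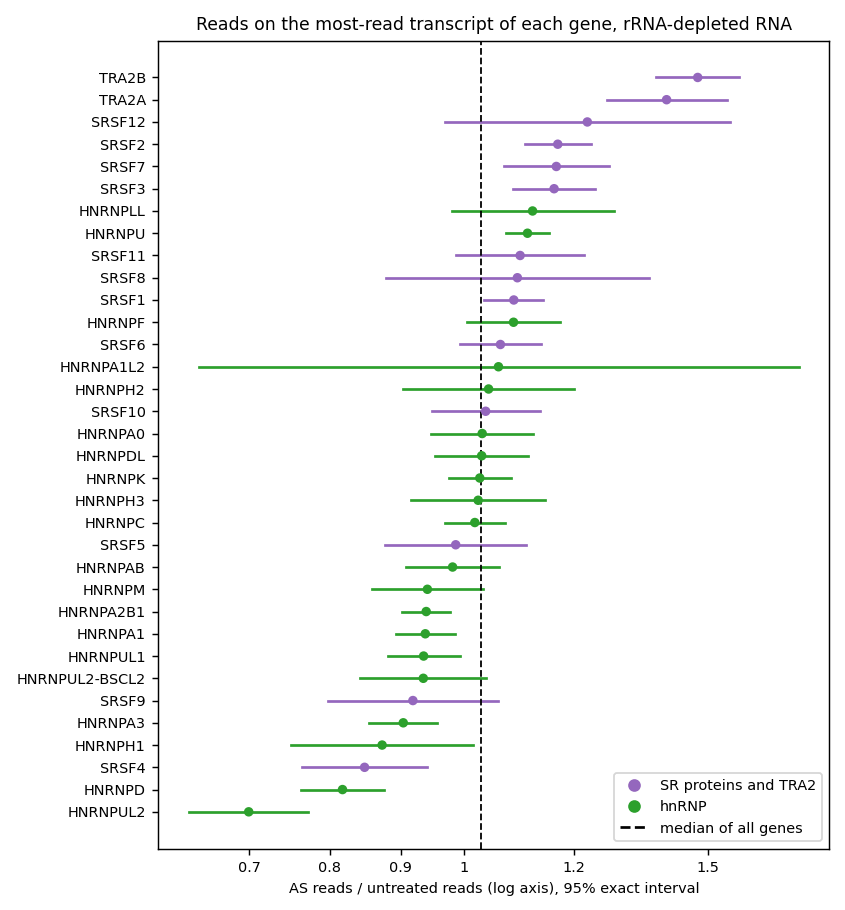
Read ratio of AS to untreated cells (x axis, log scale) for the most-read transcript of each member with at least 20 untreated reads, with 95% exact intervals as bars, 1 library per treatment, purple for SR and TRA2 genes, green for hnRNP genes and a dashed line at the median of all genes. TRA2B and TRA2A sit highest at 1.47 and 1.40, and HNRNPUL2 lowest at 0.699.

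The same libraries were compared transcript by transcript at the deposited scale of RPKM (reads per kilobase of transcript, scaled to the library's total), with a transcript called where RPKM + 1 differed by more than 2-fold and the higher value exceeded 1. The fold is on this RPKM + 1 scale, which understates the change of low transcripts. Of the 100705 transcripts tested, 1.51% were called higher in AS and 0.47% lower. Of 461 member transcripts with at least 1 RPKM in a library, 7 (1.52%) were higher and 17 (3.69%) lower. The 7 higher transcripts were those of TRA2A and TRA2B alone (TRA2A-203 and TRA2A-208, and 5 of TRA2B), and 16 of the 17 lower ones belonged to HNRNPH1. Transcripts of a gene share reads, so these calls are not independent. With AS rescaled so that the median transcript had a ratio of 1, 1 member transcript was higher and 18 lower, since the median ratio as deposited was 1.19. The 142 SR and TRA2 transcripts had a median log2 difference of 0.44 and the 319 hnRNP transcripts one of 0.17, beside 0.22 over the table.

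Among transcripts of at least 10 RPKM, the largest rises were in short TRA2 transcripts. TRA2B-210 had 123 reads in untreated and 271 in AS cells (17.5 and 45.3 RPKM, log2 1.33). TRA2B-215 had 129 and 263 reads (log2 1.22), TRA2A-208 had 251 and 474 (log2 1.12), TRA2B-212 had 191 and 360 (log2 1.11) and TRA2B-211 had 60 and 113 (log2 1.06). In each of these the AS library was the higher. TRA2A-208 has no defined coding sequence, and the others are annotated as retained introns.

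At the other end, HNRNPH1 (chr5:179614178-179634784, minus strand), a regulator that binds G-rich runs, split by transcript. HNRNPH1-212 had 48 reads in untreated and 9 in AS cells (0.188, 0.0809 to 0.386), and HNRNPH1-222 had 82 and 20 (0.244, 0.142 to 0.401). HNRNPH1-211, an NMD transcript with a 134-nt exon at chr5:179621843-179621976 inside a canonical intron, had 44 and 10 (0.227, 0.102 to 0.458). HNRNPH1-207 and HNRNPH1-233 also had 44 and 10 reads. Since a read counts on every transcript that holds it, these low ratios cannot be taken as separate falls. HNRNPH1-202, the transcript of the gene with the most reads, had 377 and 329 (0.873, 0.75 to 1.01). HNRNPH1-227, a retained-intron transcript, had 352 and 325 (0.923). The transcripts with the low ratios were short, between 501 and 1371 nt for those with at least 32 reads, and their AS reads numbered 21 or fewer. Length did not set them apart. HNRNPH1-245 (793 nt) had 200 and 195 reads (0.975), and HNRNPH1-247 (598 nt) had 194 and 187 (0.964). The canonical HNRNPH1-203 had no matched entry in the table and was not analysed here. The remaining lower transcript was HNRNPA1-275, with 6 reads in untreated and 0 in AS cells. Among transcripts of at least 10 RPKM the smallest values were those of HNRNPA1-211, a retained-intron transcript with 150 and 78 reads (log2 -0.64), HNRNPD-207 with 80 and 54 (log2 -0.30), HNRNPA1-282 and HNRNPA1-261 with 149 and 103 each (log2 -0.29), and HNRNPD-212 with 297 and 209 (log2 -0.26).

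**Figure D2:**
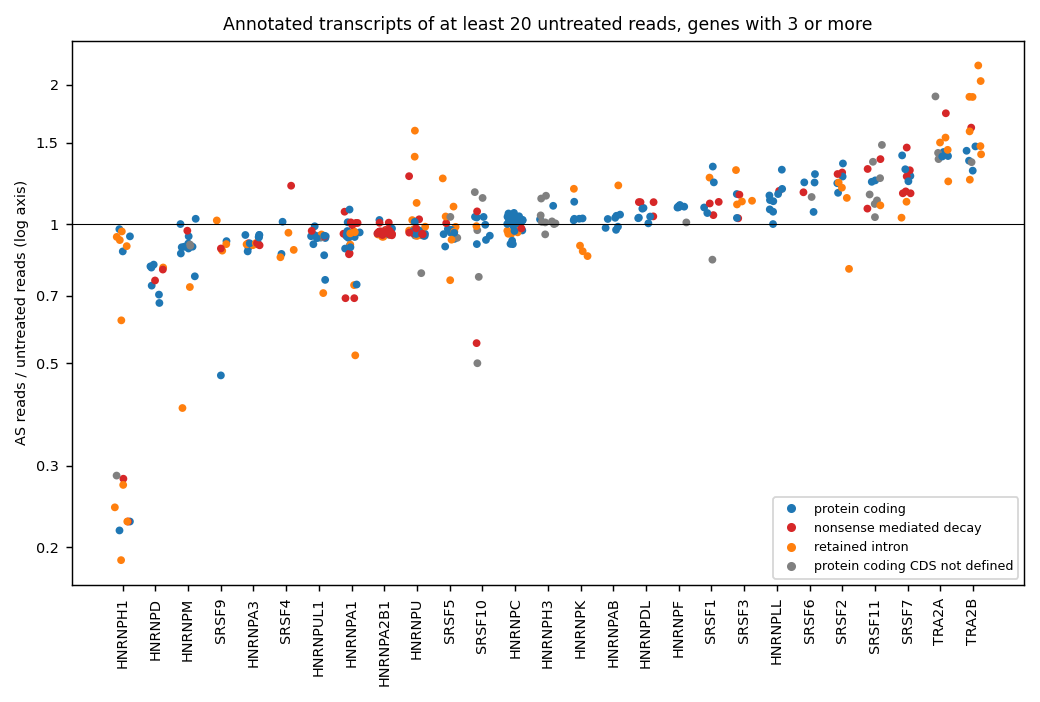
Read ratio of AS to untreated cells (log scale) for single transcripts with at least 20 untreated reads, 1 point a transcript coloured by annotated type, in genes with 3 or more. The transcripts of TRA2B lie between 1.25 and 2.20 and those of TRA2A between 1.24 and 1.89, whereas those of HNRNPH1 spread from 0.188 to 0.975.

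With the signal of all transcripts of a gene summed, 4.08% of genes were called higher in AS and 1.28% lower, and 0 of 35 measured members were called. TRA2B was at 327 summed RPKM in untreated and 599 in AS cells (log2 0.87), TRA2A at 270 and 476 (log2 0.82) and SRSF7 at 262 and 391 (log2 0.58). HNRNPH1 was at 236 and 185 (log2 -0.35), HNRNPUL2 at 16.1 and 13.4 (log2 -0.25) and HNRNPD at 551 and 505 (log2 -0.12), beside a median of 0.25 over all genes. By this measure 10 of 14 SR and TRA2 genes and 8 of 21 hnRNP genes lay above that median. The share of the members' summed signal in transcripts annotated as NMD targets or retained introns was 47.3% in both libraries, a difference of -0.024 percentage points. It went from 51.3% to 52.0% in the SR and TRA2 genes and from 46.5% to 46.0% in the hnRNP genes. These shares count a shared read on several transcripts.

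Single introns and exons could be read where 2 transcripts were nested and differed by that segment alone. Such pairs gave 6 introns in 3 member genes and 3 cassette exons in 2. Of these introns, 5 held a smaller share of the reads in AS than in untreated cells, with reads summed over the 6 going from 687 to 507. Among 118 introns of all genes the median ratio of shares was 0.772, and 69.5% lay below 1. The 673-nt intron of HNRNPA2B1 had 97 reads in untreated and 51 in AS cells, the 297-nt intron 54 and 28, the 201-nt intron 51 and 29, and the 156-nt intron 149 and 113. The 995-nt intron of SRSF2 (chr17:76735159-76736153) had 327 and 261 reads while the reads of the rest of the transcript went from 2113 to 2590, so that its share was 13.4% and 9.15%. The 74-nt intron of HNRNPAB (chr5:178204741-178204814) ran the other way, with 9 and 25 reads. Its untreated reads lay below the minimum of 20 for a segment. It was therefore counted through its AS reads, and its place among the 118 introns is not read.

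For the exons, the background of 480 cassette exons had a median ratio of 1.04. The 105-nt NMD exon of HNRNPDL shown above, in a gene whose protein is a homologue of HNRNPD, had 11 reads in untreated and 43 in AS cells. Its share was 1.14% (0.569 to 2.02) in untreated and 3.98% (2.90 to 5.33) in AS cells. The ratio of shares was 3.50. A segment needed at least 20 reads, and the 11 untreated reads fall short of that, so the exon was counted through its AS reads. Its intervals and its place among the 480 exons are therefore not read as evidence of a rise. The 171-nt coding exon of the same gene was at 31.3% and 31.0%, with 397 and 405 reads. The 36-nt exon of HNRNPA2B1 had 32 and 48 reads, a share of 0.746% and 1.17%, with overlapping intervals.

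**Figure D3:**
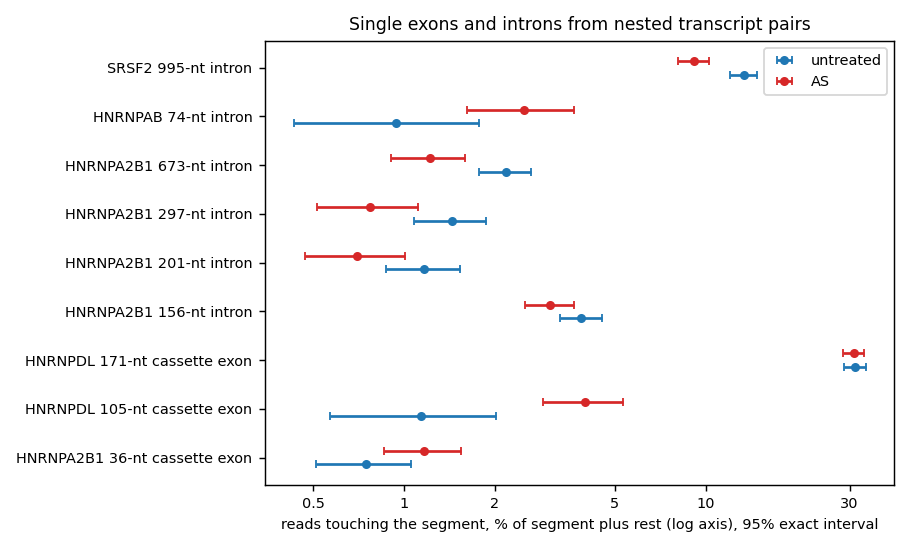
Share of reads over single introns and cassette exons of members in untreated (blue) and AS (red) cells, as percent on a log axis, with 95% exact intervals as bars. The HNRNPDL 105-nt exon goes from 1.14% to 3.98% and the SRSF2 intron from 13.4% to 9.15%, while the HNRNPDL 171-nt exon is at 31.3% and 31.0%.

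Some members had TPM but no reads in the rRNA-depleted table. HNRNPL, which binds CA repeats, was at 40.6 TPM in siCtrl, 35.6 in Total and 52.6 in SG, and had 0 reads in both rRNA-depleted libraries and an eCLIP value of 0 in 7 of 8 libraries. HNRNPR, which acts in RNA transport and splicing, was at 13.5 TPM in siCtrl, and had 1 read in untreated and 0 in AS cells. A gene without a symbol overlaps HNRNPL on the same strand, and its part in these values was not tested. HNRNPCL2, HNRNPCL3 and HNRNPCL4 were at 0 TPM in all 5 libraries, and HNRNPCL1 was above 0 in siG3BP1 alone, at 0.0565 TPM. These near-identical copies of HNRNPC, like HNRNPA1L2 and HNRNPA1L3 beside HNRNPA1, can exchange reads with it, and their values are uncertain.

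The SG comparison asked which members were enriched in the SG cores over the Total lysate. A gene was called SG-enriched or SG-depleted where TPM + 1 differed by more than 2-fold and the higher value exceeded 1. SG and Total are fractions of the same lysate, each scaled to its own total, so their ratio is relative. All libraries are bulk RNA. Between treatments, a change in the number of cells with an RNA and a change in RNA per cell therefore cannot be told apart. Of all genes, 62.9% were SG-enriched and 9.45% SG-depleted. Of 37 measured members, 14 (37.8%) were enriched and 3 (8.11%) depleted. The median log2 difference was 0.90 in the members and 1.51 over all genes, and 30 members were above 0 while 6 lay above the median of all genes. With SG rescaled so that the median gene had a ratio of 1 (its ratio as deposited was 2.78), 2 members were enriched and 9 depleted.

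The subgroups differed in their values. Of the 12 SR proteins, 5 were enriched and 1 depleted (median log2 0.71). Of 7 genes of the A/B group, which bind UAG motifs and AU-rich sequences, 1 was enriched and 2 depleted (median 0.45). Of 4 genes of the F/H group, 3 were enriched (median 1.34), and of the 4 genes of the U group, 3 were enriched (median 1.81). The U group counts HNRNPUL2 (log2 3.25) and the readthrough HNRNPUL2-BSCL2 (2.28), which share exons, beside HNRNPU (1.33) and HNRNPUL1 (0.87, not called). Of the 5 genes HNRNPK, HNRNPL, HNRNPLL, HNRNPM and HNRNPR, 2 were enriched (median 0.87). The 2 genes of the D group and HNRNPC were not called, nor were TRA2A and TRA2B (log2 0.97 and 0.58).

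HNRNPR went from 6.32 TPM in Total to 84.9 in SG (log2 3.55). HNRNPUL2 (chr11:62712630-62727457) went from 25.7 to 252 (log2 3.25). SRSF10, a repressor that is dephosphorylated in heat shock and mitosis, went from 11.3 to 63.4 (log2 2.39). These 3 and HNRNPUL2-BSCL2 (59.8 and 294, log2 2.28), the readthrough transcript that shares exons with HNRNPUL2, were the highest. SRSF8 was at 11.2 and 41.6 TPM (log2 1.81), HNRNPLL, a splicing factor of lymphocytes, at 21.0 and 62.1 (log2 1.52), SRSF12 at 4.84 and 14.4 (log2 1.40) and SRSF11 at 20.3 and 45.6 (log2 1.13). The level of SRSF2 in SG was the highest of the members, at 404 TPM in Total and 825 in SG (log2 1.03).

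The depleted members were 3. SRSF7 went from 160 to 67.4 TPM (log2 -1.23), HNRNPA1L3 from 77.0 to 33.2 (log2 -1.19), and HNRNPA1, the most abundant member in Total, from 910 to 446 (log2 -1.03). HNRNPA1 is a shuttling protein found in SGs and mutated in a degenerative disease. Beside them, HNRNPD was at 373 and 201 TPM (log2 -0.89), SRSF3 at 137 and 87.5 (log2 -0.64), SRSF9 at 122 and 83.9 (log2 -0.53) and HNRNPAB at 280 and 236 (log2 -0.25), which were lower in SG and did not pass the fold.

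Rescaling to the median ratio turned the sign of HNRNPA0, HNRNPF, HNRNPH1, HNRNPH3, HNRNPU, SRSF2 and SRSF11 among the enriched members. HNRNPR at 2.11, HNRNPUL2 at 1.78 and SRSF10 at 0.96 were still above 0 after it. The members made up 0.694% of the TPM of the protein-coding genes in siCtrl, 0.760% in Total and 0.907% in SG.

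**Figure D4:**
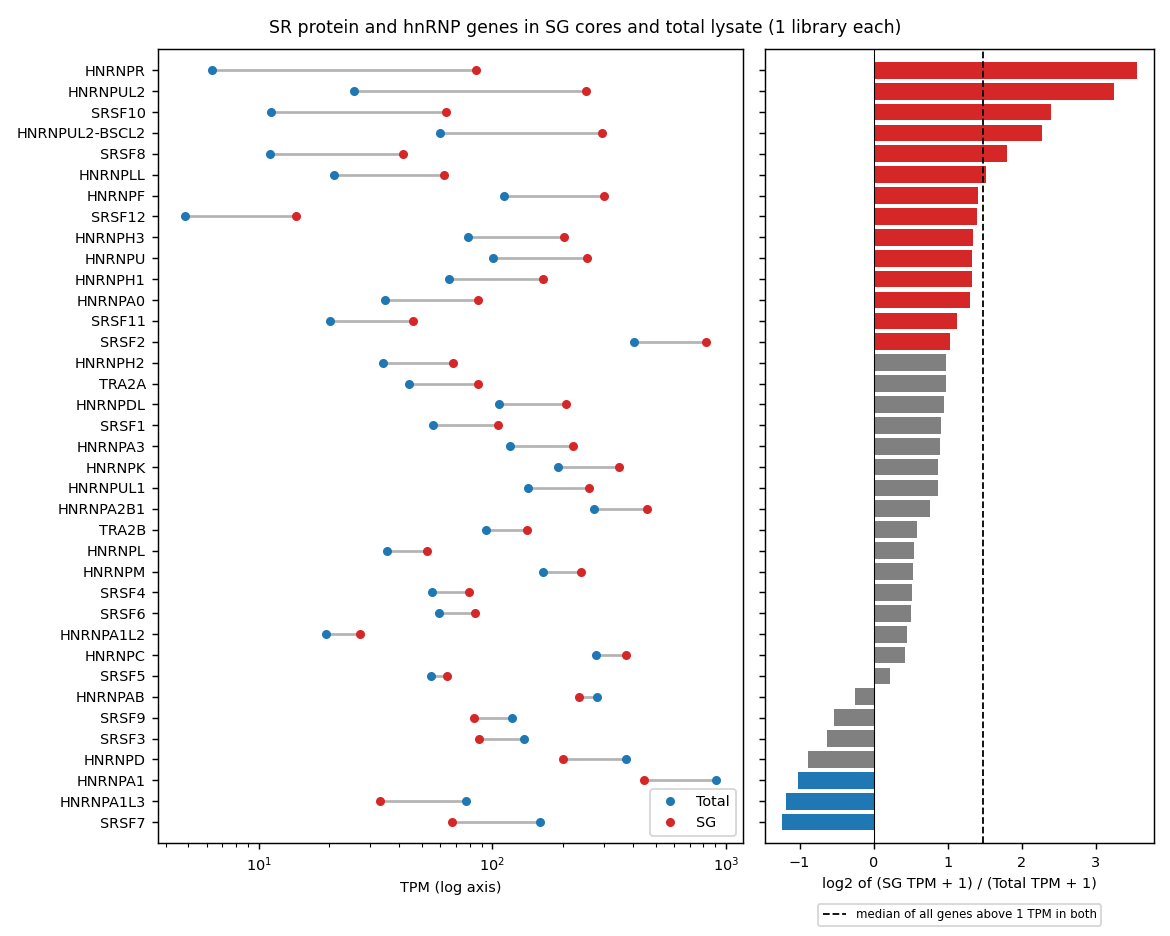
Members in Total and SG, as TPM (left, log axis) and as log2 of SG over Total on TPM + 1 (right), 1 library each, with red bars for SG-enriched and blue bars for SG-depleted members, grey bars for those not called, and a dashed line at the median of all genes above 1 TPM in both. HNRNPR, HNRNPUL2 and SRSF10 lie at the top with 3.55, 3.25 and 2.39, and SRSF7, HNRNPA1L3 and HNRNPA1 at the bottom with -1.23, -1.19 and -1.03.

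The members' enrichment went with the length of the transcript and against its level. Over the 37 members the Spearman correlation of the log2 difference was 0.48 with transcript length, 0.39 with the length of the 3′UTR, 0.33 with the CDS, -0.17 with GC content and -0.58 with TPM in Total. Over 13537 genes it was 0.70 with transcript length, 0.51 with the 3′UTR and 0.54 with the CDS. Genes share the 2 libraries and Total TPM enters both measures, so these are descriptions with no test. The 14 enriched members had a median canonical transcript of 4072.5 nt, the 3 depleted ones of 2356 nt and the 20 others of 2978.5 nt. The members' median transcript of 3589 nt was near the 3279 nt of all genes. Their CDS was 1038 nt against 1374 nt, their GC content 42.2% against 49.3%, and their median level in Total 77.0 TPM against 7.03.

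Between the siRNA libraries no member was called. In siG3BP1 against siCtrl 1.12% of genes were higher and 1.98% lower, in siG3BP2 against siCtrl 1.23% and 2.89%, and in siG3BP2 against siG3BP1 1.4% and 1.94%. The first pair of comparisons shares the siCtrl library. Of 37 members, 32 stayed within 1.25-fold of siCtrl in siG3BP1, beside 74.2% of all genes with at least 1 TPM in siCtrl, and 30 in siG3BP2, beside 66.6%. Against the median of all genes, 21 members were above it in siG3BP1 and 26 in siG3BP2. HNRNPD was at 170 TPM in siCtrl, 185 in siG3BP1 and 311 in siG3BP2, a log2 difference of 0.87 for siG3BP2. HNRNPM, a splicing factor of the early spliceosome, was at 132, 188 and 125 TPM, a log2 difference of 0.51 for siG3BP1. HNRNPA1 was at 479, 363 and 353 TPM, with log2 differences of -0.40 and -0.44, the lowest in both. HNRNPUL2 was at 67.5, 53.2 and 50.1 TPM (log2 -0.34 and -0.42) and HNRNPUL2-BSCL2 at 113, 88.4 and 84.1 (log2 -0.36 and -0.43). HNRNPA1L2 was at 13.5, 16.0 and 18.1 TPM (log2 0.23 and 0.40), TRA2A at 40.3 and 47.5 in siCtrl and siG3BP1 (log2 0.23) and HNRNPA2B1 at 231 and 277 in siCtrl and siG3BP2 (log2 0.26). Between the knockdowns, siG3BP2 against siG3BP1, HNRNPD differed by log2 0.74 and HNRNPM by log2 -0.58. HNRNPH1 was at 75.8 TPM in siG3BP1 and 97.7 in siG3BP2 (log2 0.36), SRSF5 at 78.4 and 95.8 (log2 0.29), SRSF2 at 428 and 361 (log2 -0.25) and HNRNPK at 223 and 188 (log2 -0.24).

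Total and siCtrl differ in treatment with siRNA and in how the RNA was prepared, and the labels do not separate AS between them, so these cannot be told apart. Of all genes 1.28% were higher in Total and 19.6% lower, with a median ratio of 0.75. Of the members, HNRNPD was called higher (170 and 373 TPM, log2 1.13) and HNRNPUL2 lower (67.5 and 25.7, log2 -1.36). After rescaling to the median ratio, 2 members were higher and 0 lower. HNRNPA1 was at 479 TPM in siCtrl and 910 in Total (log2 0.93), HNRNPA1L3 at 53.5 and 77.0 (log2 0.52), HNRNPR at 13.5 and 6.32 (log2 -0.98) and HNRNPUL2-BSCL2 at 113 and 59.8 (log2 -0.91).

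The eCLIP values of each G3BP protein were compared over the members. The deposited values are log10 of a whole number plus 1 per gene, in columns headed as peaks. The step that gave the number is not stated in the sources used here, and the values were not set against the input libraries. A value above 0 therefore does not by itself show binding. The 3 other HNRNPCL genes beside HNRNPCL4 were at 0 in all 8 libraries. Of 41 members, 36 were above 0 in at least 2, beside 19259 of 19942 genes. In all 8 libraries 30 members were above 0, a count not made over all genes. HNRNPC, whose gene spans chr14:21209136-21269494, had the highest values, with 3.78 and 3.36 for G3BP1 untreated, 3.66 and 3.20 for G3BP1 with AS, 3.81 and 3.44 for G3BP2 untreated, and 3.75 and 3.38 for G3BP2 with AS. HNRNPLL and HNRNPA2B1 followed for G3BP1, with means of 2.93 and 2.89 untreated. For G3BP2 untreated HNRNPLL and HNRNPUL1 had means of 2.93. The values of the libraries numbered 2 were lower than those numbered 1 in all 4 groups for 26 of 36 members, and so were the library totals. The count of 26 was not set against all genes. The mean of the 8 libraries had a Spearman correlation of 0.57 with the span of the gene over 37 members and of 0.84 over all genes, as a description over genes of the same libraries.

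Limma called no member with AS or between the proteins. With 2 libraries a group of unlike totals, the fit of the values as deposited has little power: on simulated data it missed the changes put into the AS comparisons and the interaction, while libraries scaled to the same total returned more of them. The simulation gave all genes the same dispersion and changed only genes with higher counts, so its recovery need not hold for these data. A count of 0 therefore does not show that values did not differ. For G3BP1, AS against untreated, 0% of genes were called and 0 of 35 members (46 of 18888 genes and 0 members at an unadjusted p under 0.05). For G3BP2 0.0105% of genes were called (2 of 19035), and 0 of 35 members (159 genes and 1 member unadjusted). For G3BP2 against G3BP1 0% of genes and 0 of 36 members were called (150 genes and 0 members unadjusted), and for the interaction of treatment and protein 0% and 0 of 36 (48 genes and 0 members). The median difference of AS and untreated cells was -0.135 in the members and -0.115 in all genes for G3BP1, and -0.085 and -0.075 for G3BP2.

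Single members showed how wide the spread was. HNRNPH3 in G3BP2 eCLIP was at 2.51 and 0.00 in untreated and at 2.15 and 2.1 in AS cells. The difference was 0.87 (95% interval 0.03 to 1.71), with an unadjusted p of 0.0423 and an adjusted p of 1 by limma, and the groups overlapped. With the libraries scaled to the same total, 0 members were called too, and 4 had an unadjusted p under 0.05 for G3BP2, each with an adjusted p of 0.994 by limma. They were HNRNPA2B1 with a difference of 0.45 (interval 0.18 to 0.71), HNRNPK with 0.30, HNRNPA1 with -0.31 and TRA2A with -0.22. HNRNPH3 then had an unadjusted p of 0.235 by limma. SRSF2 in G3BP1 eCLIP was at 0.00 and 1.68 untreated and at 1.81 and 1.28 with AS. In G3BP2 eCLIP it was at 0.78 and 1.23 untreated and 1.72 and 1.65 with AS. The second pair of groups did not overlap, with a difference of 0.68 (interval -0.17 to 1.53). TRA2B in G3BP2 eCLIP was at 2.70 and 2.46 untreated and 2.39 and 2.19 with AS, a difference of -0.29 (interval -1.12 to 0.54), again without overlap. TRA2A in G3BP1 eCLIP was at 2.98 and 2.53 untreated and 2.61 and 2.47 with AS. Groups without overlap were lower in AS for 1 member in G3BP1, SRSF6 (2.08 and 1.57 untreated, 1.49 and 1.43 with AS), beside 2.27% of all genes, and for 3 in G3BP2 (HNRNPA1, HNRNPA1L2 and TRA2B), beside 3.35%. They were higher for 0 members in G3BP1, beside 0.852% of genes, and for 3 in G3BP2 (HNRNPA2B1, SRSF2 and SRSF9), beside 1.51%. HNRNPA1 in G3BP2 eCLIP was at 2.82 and 2.64 untreated and 2.55 and 2.15 with AS, and HNRNPA2B1 at 2.96 and 2.81 untreated and 3.44 and 3.08 with AS.

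**Figure D5:**
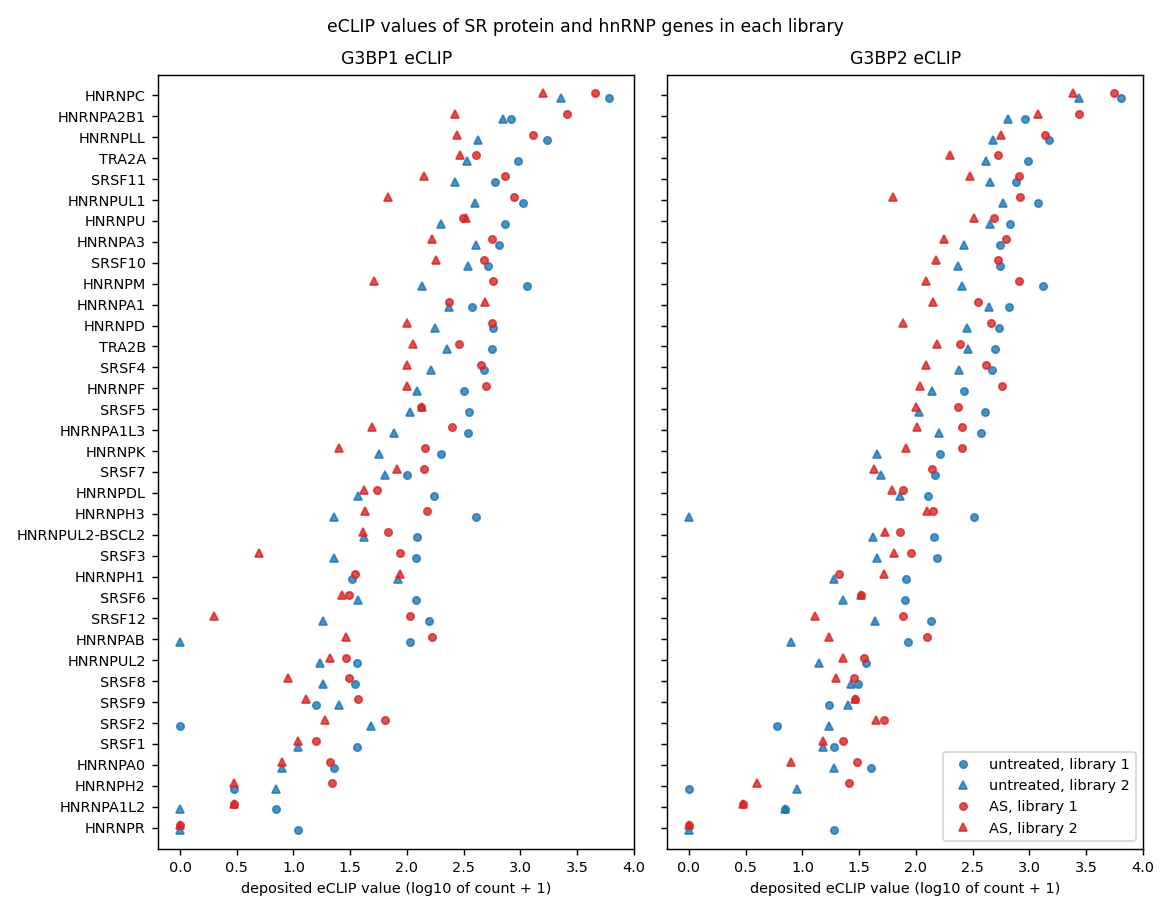
eCLIP values (log10 of a number plus 1) of the members for each G3BP protein without and with AS, with circles for the libraries numbered 1, triangles for those numbered 2, blue for untreated and red for AS. HNRNPC is highest in every library, between 3.20 and 3.81, and the values of untreated and AS-treated cells overlap for most members.

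Genes that act with these families were counted from lists, to be read beside the 62.9% of all genes that were SG-enriched and their median log2 difference of 1.51. The genes named for SG are those with the largest difference in their list. Of 11 kinases and importers of SR proteins, 9 were SG-enriched and 0 depleted (median log2 1.88), among them DYRK1A (0.293 and 49.0 TPM) and TNPO1 (8.42 and 112 TPM), which imports hnRNPs. Of 13 SR-related and spliceosome genes, 7 were enriched and 0 depleted (median 1.35), with SON at 14.3 and 362 TPM. Of 21 other hnRNP-like regulators, 12 were enriched and 1 depleted (median 1.31), with CELF1 at 7.65 and 210 TPM. In rRNA-depleted RNA, CLK1, a kinase that phosphorylates SR proteins, was the one gene of the 3 lists called higher in AS, at 61.0 and 128 summed RPKM (log2 1.06), and 0 were lower. Over all genes 4.08% were higher and 1.28% lower. In siG3BP1, CELF1 was called lower, at 25.7 TPM in siCtrl and 4.78, beside 1.98% of all genes. In siG3BP2 it was at 13.7 TPM (log2 -0.86) and was not called. In siG3BP2 the kinases CLK2 (31.0 and 13.2 TPM) and CLK4 (5.48 and 2.09) were lower, beside 2.89% of all genes. CLK4 was nearly as low in siG3BP1, at 2.26 TPM (log2 -0.99), just short of the call.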

How the data were processed

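RNA-seq was made in 1 library per condition and eCLIP in 2 per group. The authors aligned the RNA-seq reads with HISAT2 2.1.0 to hg38 (per the labels) and for the siRNA, SG and Total libraries deposited StringTie TPM of protein-coding genes. For the eCLIP reads the study's methods name the aligner STAR. The authors' rRNA-depleted table is headed TPM, but its deposited values are RPKM: 100.0% and 99.999% of them were whole reads within 0.05. The deposited eCLIP values are log10 of a whole number plus 1, unscaled. SMInput libraries were not analysed here. Members were matched by Ensembl ID to GENCODE 44 on GRCh38. Strandedness of the counting is not given in the sources used here, so antisense overlaps cannot be told apart.

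Values were compared on log2(value + 1), called beyond 2-fold with the higher value above 1, and without a p-value. eCLIP used limma 3.58.1 in R 4.3.3 on genes above 0 in at least 2 libraries of the fit, with Benjamini-Hochberg adjustment at 0.05, and the method was tested on simulated data, where the values as deposited had little power. Intervals are exact (95%) and cover counting error only. Each comparison names the 3 highest and 3 lowest members by difference among those above 10 TPM or RPKM, and the 5 such transcripts at each end. The rule lets any other member be named, and those given beyond these were picked after their values were seen. The members and lists were chosen with earlier results of these data known. Other pseudocounts, folds, minimums and scalings and leaving out libraries were tried. Tables used pandas 2.3.3 and scipy 1.17.1 under Python 3.11.15. A marker of the sympathetic list is not reported here.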

Additional observations from a re-analysis of the deposited data

How the results depend on the processing

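With a fold of 1.5, 27 members were called between SG and Total (22 higher, 5 lower), 1 in siG3BP2 against siCtrl, 1 in siG3BP2 against siG3BP1, 6 in Total against siCtrl, 2 in the summed rRNA-depleted signal and 67 transcripts with AS (45 higher, 22 lower). With a minimum of 10 RPKM, 6 member transcripts were called, since the HNRNPH1 transcripts lay below it. After rescaling to a median ratio of 1, 11 members were called between SG and Total (2 higher, 9 lower), and the log2 differences turned for HNRNPH3 (-0.12), SRSF11 (-0.29), HNRNPU (-0.13), SRSF2 (-0.44), HNRNPH1 (-0.13), HNRNPF (-0.054) and HNRNPA0 (-0.14). The NMD and retained-intron share differed by -0.037 percentage points over transcripts of at least 1 RPKM, by 0.396 for retained introns alone and by -0.420 for NMD alone. Of the eCLIP differences, leaving out 1 library gave -0.135 to 1.545 for SRSF2 with G3BP1 (-0.135 without untreated replicate 1), -0.19 to 1.84 for HNRNPAB with G3BP1, -0.465 to 0.525 for HNRNPA2B1 with G3BP1 and -0.385 to 2.125 for HNRNPH3 with G3BP2 (-0.385 without untreated replicate 2). The cause was not tested.

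The eCLIP replicate numbers were taken as names only, since not every correlation of same-numbered deviations was over 0.1. They ran from 0.0626 to 0.452, all above 0, and were highest between the proteins within a treatment (0.452 untreated, 0.381 AS). With the replicate number as a block 0 members were called in the 4 eCLIP comparisons. Over 40 eCLIP alternatives 0 had a member called, between 0 and 12 of all genes were called, and 0 to 6 members had an unadjusted p under 0.05 by limma. The 3 added alternatives were chosen after seeing the data. By the most-read transcript 0 members were called with AS, without HNRNPUL2-BSCL2 16 were called between SG and Total, and a second nested pair gave 9 and 43 reads for the HNRNPDL 105-nt exon. Depth limits the HNRNPH1 transcripts, with 21 or fewer AS reads, and 1 library per condition limits every RNA-seq result.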
